A study of Mus musculus with 4 samples.

Results

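Of 37041 cell barcodes in 4 mouse kidney libraries, 1480 carried more than 50% and up to 80% of their transcripts on mitochondrial genes, and these high-mitochondrial barcodes are described here. They were chosen by 3 values, a minimum of 500 unique transcript molecules (UMIs), a minimum of 200 genes, and the share of UMIs on the 13 mitochondrial mRNAs. Of the 33519 barcodes that passed the UMI and gene minimum, 31041 had at most 50% mitochondrial UMIs and serve as the remaining barcodes in each comparison, and 998 had more than 80%. The mitochondrial share is therefore a property of the selection and is given as a description. The nuclear genes they carried and the mix of mitochondrial mRNAs among themselves were not used to choose them.

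The mitochondrial genome encodes 13 mRNAs, all for subunits of respiratory complexes I, III, IV and V, and the transfer RNAs needed to translate them, among them TrnE, which carries glutamate. Proximal tubule cells of the nephron reabsorb most of the filtered solutes and are packed with mitochondria, as are cells of the thick ascending limb and the distal convoluted tubule, whereas circulating and resident leukocytes hold few. In droplet data a high mitochondrial share is a usual reason to discard a barcode, because a leaking cell loses cytoplasmic RNA sooner than its mitochondria, and in kidney the same filter also meets tubule cells that are rich in mitochondria.

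The libraries came from 2 mice with a point mutation of mitochondrial TrnE, mutant 1 at a mutation load of 79% and mutant 2 at 76%, and from 2 wild-type C57BL/6J mice. Kidney tissue of both genotypes was digested with Liberase TM and DNase I, cleared of red cells, sorted for viable cells with a viability dye and loaded on a droplet 3′ kit. No source used here gives age, sex or the mutated base, and the replicate numbers are not stated to pair animals. The deposited name of wild type 1 has the same form as that of mutant 2, and the name of mutant 1 holds a number other than its stated load; the labels were followed. Each library is 1 mouse, so genotype tests rest on 2 against 2 and tests of high-mitochondrial against remaining barcodes on 4 libraries.

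The gene that the mutants carry in altered form is shown here as the reference sequence, since it names the tRNA for which the 2 groups differ. Mouse mt-Te (ENSMUSG00000064369) is a tRNA gene at chrM:14071-14139 on the minus strand of mm10 (GENCODE M21), 69 bases long, with the anticodon at bases 31 to 33 from the 5′ end in capitals. The tRNA itself is not among the genes counted.
mt-Te: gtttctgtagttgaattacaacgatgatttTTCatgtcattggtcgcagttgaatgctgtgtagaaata

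High-mitochondrial barcodes made up 5.33% of passing barcodes in mutant 1 (570) and 2.76% in mutant 2 (261), and 5.20% in wild type 1 (322) and 4.54% in wild type 2 (327). Their median depth was 1376 and 3543 UMIs for mutants 1 and 2, and 3085.5 and 2357 UMIs for wild types 1 and 2, against 4452, 5846, 4937.5 and 6599 in the remaining barcodes of the same libraries. A low nuclear depth is partly fixed by the choice of a high mitochondrial share and is given as a description. Their median of nuclear UMIs (all UMIs outside the 13 mitochondrial mRNAs) was 433.5 in mutant 1, 1275 in mutant 2, 1069.5 in wild type 1 and 839 in wild type 2, against 4290.5, 5532, 4609.5 and 5926 in the remaining barcodes. Their median mitochondrial share was 68.0% and 60.8% in the mutants, against 62.9% and 63.3% in the wild types. Mutant 1 stood apart from the other 3 libraries in depth, and of 315 barcodes in the same mitochondrial range that missed the UMI or gene minimum, 313 were from mutant 1. High-mitochondrial barcodes held 13.2%, 8.85%, 10.7% and 10.3% of all mitochondrial UMIs in mutant 1, mutant 2, wild type 1 and wild type 2. Scrublet called 18 of them doublets (1.22%), against 688 of the remaining barcodes (2.22%), and no high-mitochondrial barcode sequence occurred in more than 1 library. Library totals ran from 42121175 to 70013861 UMIs.

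Around the lower limit the leading markers were close. Just under the lower limit, at 45 to 50% mitochondrial UMIs, 58.3% and 61.1% of mutant barcodes and 79.3% and 86.6% of wild-type barcodes were led by proximal tubule markers. Just over it, at 50 to 55%, the shares were 67.2% and 65.7% in the mutants, against 69.7% and 82.4% in the wild types. Around the upper limit the proximal-led share was lower on the outer side in 3 of 4 libraries. It was 37.3%, 57.1%, 85% and 71.2% at 75 to 80% (mutant 1, mutant 2, wild type 1, wild type 2) and 42.5%, 52.9%, 65.0% and 48.5% at 80 to 85%. Nuclear depth was lower at higher mitochondrial shares: the median of nuclear UMIs was 765.5, 1800.5, 1470.0 and 1347.5 at 50 to 60% and 338, 685, 656 and 500.5 at 70 to 80% in the same order of libraries.

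**Figure D1:**
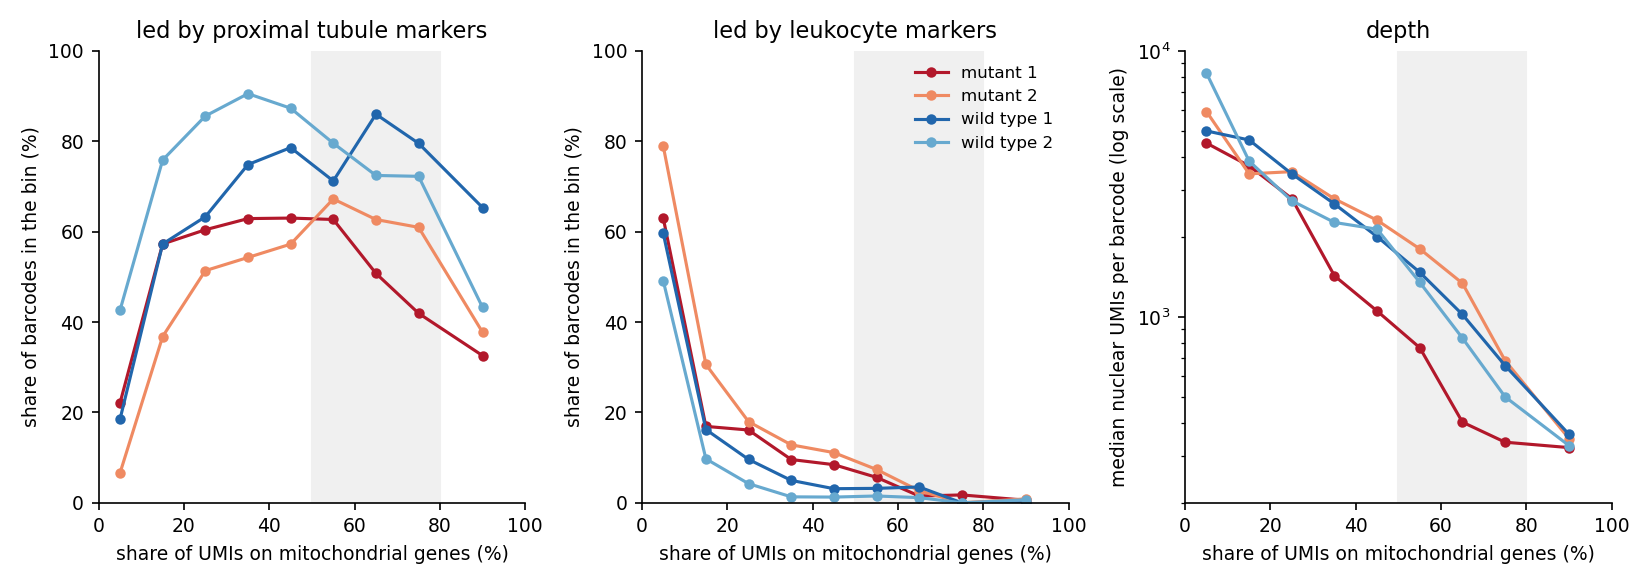
Share of barcodes led by proximal tubule markers (left), led by leukocyte markers (middle) and median nuclear UMIs per barcode on a log scale (right), by the share of UMIs on mitochondrial genes, 1 line per library, with the selected range shaded. Leukocyte-led barcodes made up 49.1 to 78.9% below 10% mitochondrial UMIs and 0 to 1.75% at 70 to 80%, while proximal-led barcodes made up 41.9 to 79.5% at 70 to 80%.

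High-mitochondrial barcodes were mostly tubular, and mostly proximal. A barcode was called led by a class when that class's marker list held at least 3 UMIs and at least 60% of the UMIs on 9 class lists, which is a statement on transcripts and not a cell type. Proximal tubule markers led 953 of 1480 (64.4%), namely 50.2% and 64.4% in mutants 1 and 2 and 78.6% and 75.2% in wild types 1 and 2, against 26.8%, 13.7%, 29.5% and 57.0% of the remaining barcodes. The 2 mutants were below both wild types, with 57.3% ± 10.0 against 76.9% ± 2.36 (SD, n = 2 each, exact permutation p = 0.333, the smallest that 2 against 2 allows). That order did not hold at equal depth. With every barcode thinned to 200 nuclear UMIs the shares were 26.7% and 54.0% in the mutants, against 70.2% and 50.2% in the wild types. Mutant 2 then lay above wild type 2. The mean difference between genotypes was -19.8 points thinned and -19.6 points unthinned. No list led 66.3% and 28.0% of thinned high-mitochondrial barcodes in the mutants, against 17.1% and 42.8% in the wild types. Unthinned, 35.1% of high-mitochondrial barcodes had no leading list in mutant 1, the shallowest library. Thick ascending limb markers led 113, or 3.51% and 14.9% in the mutants, against 10.2% and 6.42% in the wild types, so that the groups overlapped. Distal convoluted tubule markers led 36, connecting tubule and principal cell markers 16, and intercalated cell markers 25. Of the 25 intercalated-led barcodes 16 and 7 came from mutants 1 and 2 and 2 and 0 from wild types 1 and 2, and 0 of 327, by the limit of 3 counts, allows a share of up to 0.917%.

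Leukocyte and endothelial markers led few of them. Leukocyte markers led 37 high-mitochondrial barcodes (2.5%), although they led 53.8% of the remaining barcodes, and endothelial markers led 18. No list led 279, of which 223 had fewer than 3 UMIs on every list. Mutant 1 contributed 174 of those 223, beside its low depth, and the median of nuclear UMIs was 364 in barcodes with no leading list and 933 in led ones.

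Read the other way, the share of each class that fell in the 50 to 80% range was taken over high-mitochondrial and remaining barcodes. The 998 barcodes over 80% were left out. Among tubular classes the share was highest in the thick ascending limb in mutant 2 and both wild types, and in the distal convoluted tubule in mutant 1. High-mitochondrial barcodes were 12.99% and 17.4% of those led by thick ascending limb markers in the mutants, against 23.2% and 20% in the wild types. For proximal tubule markers the share was 9.83% and 11.9% in the mutants, against 12.9% and 6.29% in the wild types. For leukocyte markers it was 0.269% and 0.176% in the mutants, against 0.287% and 0.139% in the wild types, and over all libraries it was 0.73% for endothelial markers. For the distal convoluted tubule it was 29.3% (17 of 58 barcodes) and 11.3% in the mutants, against 7.04% and 8.96% in the wild types.

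The contrast kept its direction when every barcode was thinned to 200 nuclear UMIs, which dropped no barcode but left many without a leading list. No list then led 43.6% of high-mitochondrial and 65.2% of remaining barcodes, against 18.9% and 4.24% unthinned. Leukocyte markers led 10.9% of the remaining barcodes thinned and 53.8% unthinned. Thinned, the proximal-led share was on average 32.8 percentage points higher in high-mitochondrial than in remaining barcodes (14.9 to 51.3 over 4 libraries), higher in 4 of 4. The thick ascending limb share was 6.19 points higher (1.51 to 10.2), also in 4 of 4. The leukocyte-led share was 9.99 points lower, between 5.71 and 13.9 points in single libraries. For each of these 3 classes the exact sign-flip p was 0.125, the smallest that 4 libraries allow.

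**Figure D2:**
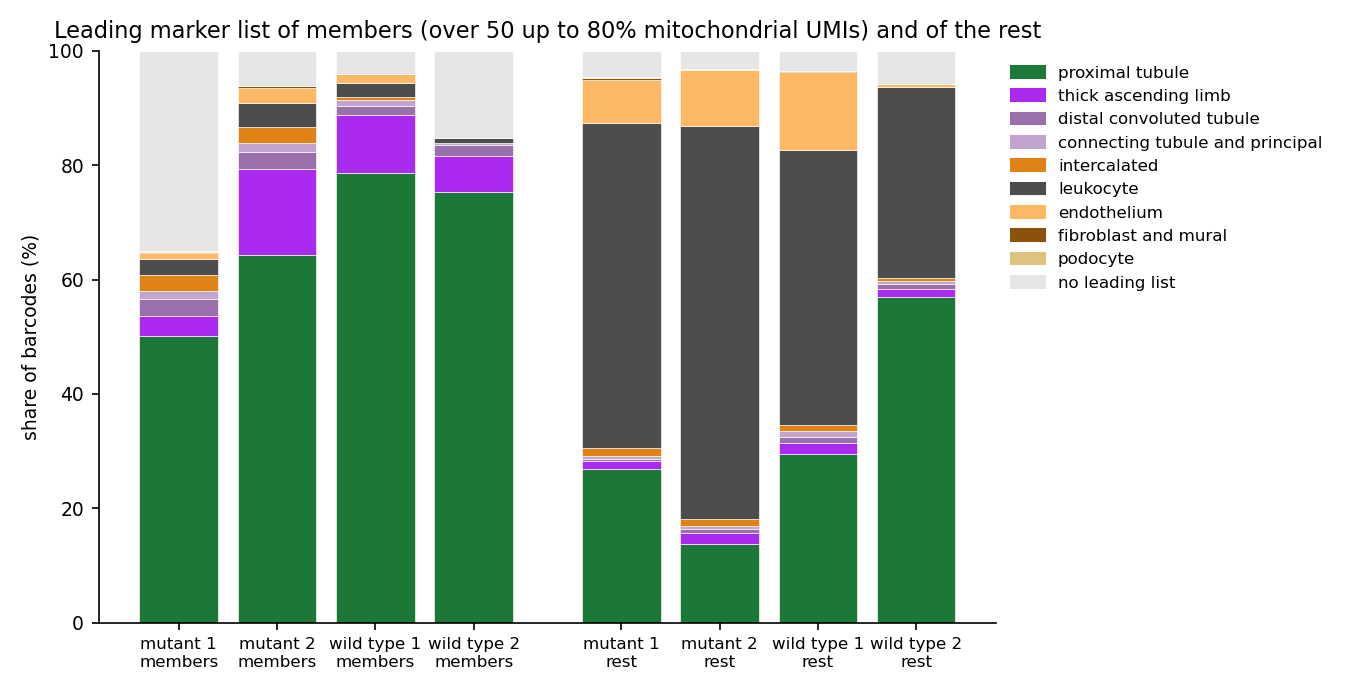
Share of barcodes by leading marker list, in percent, for high-mitochondrial barcodes (members, left) and remaining barcodes (rest, right) of each library. Proximal tubule markers led 50.2 to 78.6% of the high-mitochondrial barcodes, and leukocyte markers led 33.4 to 68.7% of the remaining ones.

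Single genes of the proximal tubule, the thick ascending limb and the distal convoluted tubule were higher in high-mitochondrial barcodes. Slc34a1, the phosphate cotransporter of the proximal brush border, stood at 1676 and 5340.1 CPM (UMI counts scaled to a common total of nuclear UMIs) in high-mitochondrial barcodes of the mutants, 5643 and 4121 in those of the wild types, against 661, 384, 1036 and 1953 in the remaining barcodes of mutant 1, mutant 2, wild type 1 and wild type 2. It was higher in high-mitochondrial barcodes in each library, by 2.14 on the log2 scale (SE 0.39, adjusted p = 3.6e-05; edgeR quasi-likelihood test with library as a block, Benjamini-Hochberg over all genes). In leukocyte-led remaining barcodes, which should lack the gene, it stood at 19.9, 11.5, 21.3 and 52.4 CPM; free RNA and doublets were not told apart as its source.

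Slc12a1, the sodium-potassium-chloride cotransporter of the thick ascending limb, stood at 269.7, 1176, 1263 and 1042 CPM in high-mitochondrial barcodes (mutant 1, mutant 2, wild type 1, wild type 2), against 74.5, 83.4, 142 and 106 in the remaining ones. It had the largest log2 difference of the 5 segment genes, 3.07 (SE 0.34, adjusted p = 1.18e-08). Slc12a3, the sodium-chloride cotransporter of the distal convoluted tubule, stood at 718, 923, 221 and 769 CPM against 70.6, 126, 180.4 and 132, a log2 difference of 2.32 (SE 0.34, adjusted p = 1.22e-06). Wild type 1 was lowest for Slc12a3, with a small margin over its own remaining barcodes. Both cotransporters stood between 1.48 and 7.97 CPM in leukocyte-led remaining barcodes.

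Atp6v1g3, a proton pump subunit of intercalated cells, did not separate the 2 kinds of barcode. It stood at 407 and 488 CPM in high-mitochondrial barcodes of the mutants, 86.4 and 34.4 in those of the wild types, against 204, 103, 91.4 and 44.0 in the remaining barcodes, so it was higher in both mutants and lower in both wild types. The log2 difference over the 4 libraries was 0.76 (SE 0.32, adjusted p = 0.0715), and it was -0.15 (adjusted p = 0.79) against remaining barcodes with at most 2000 nuclear UMIs. Ptprc, the leukocyte surface phosphatase CD45, stood at 90.7, 135, 67.2 and 66.4 CPM against 306, 693, 509 and 535, and fell by 2.51 on the log2 scale (SE 0.30, adjusted p = 3.79e-08).

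**Figure D3:**
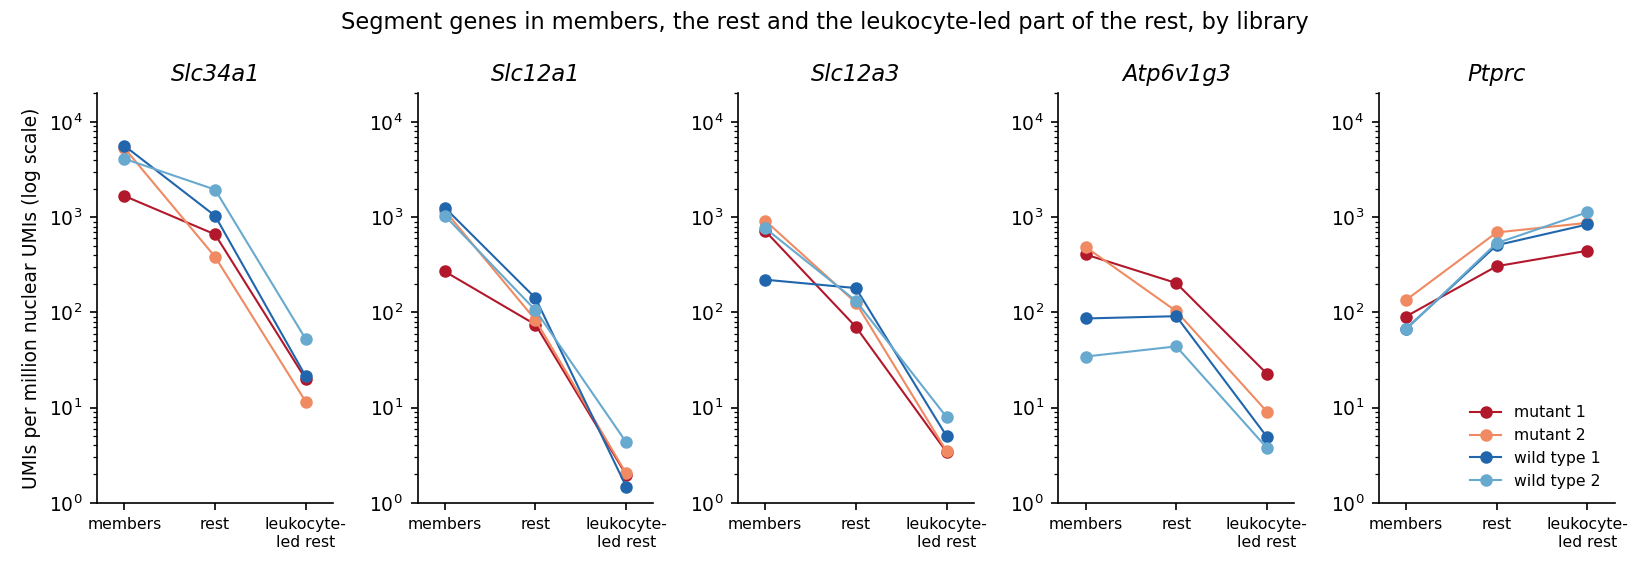
CPM of nuclear UMIs (log scale) of the 5 segment genes in high-mitochondrial barcodes (members), remaining barcodes (rest) and leukocyte-led remaining barcodes, 1 line per library. Slc34a1 and Slc12a1 stood higher in the high-mitochondrial barcodes of each library, Ptprc lower, and Atp6v1g3 differed in direction between mutants and wild types.

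Per barcode, the 5 genes rarely occurred together. Of the 1480, 390 (26.4%) had no UMI of any of them, 947 (64.0%) had UMIs of exactly 1 and 143 (9.66%) of several. Slc34a1 was the only one in 695, Slc12a1 in 107, Slc12a3 in 74, Atp6v1g3 in 46 and Ptprc in 25. Mutant 1 held 250 of the 390 with none. Among pairs, Slc34a1 occurred with Atp6v1g3 in 43, with Slc12a1 in 35, with Ptprc in 32 and with Slc12a3 in 19.

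A UMI of Slc34a1 was found in 36.1% and 65.1% of high-mitochondrial barcodes in the mutants, against 73.6% and 61.8% in the wild types. The share was 10.1%, 6.39%, 8.50% and 37.8% in leukocyte-led remaining barcodes, whose median depth was 5211, 6081, 5577 and 8580.5 nuclear UMIs. Thinned to 200 nuclear UMIs the shares were 19.8%, 45.6%, 50.9% and 37.6% in high-mitochondrial barcodes, against 0.414%, 0.225%, 0.108% and 1.53% in leukocyte-led ones. For Atp6v1g3 the unthinned share of 11.9%, 6.51%, 3.42% and 2.75% lay close to that in leukocyte-led barcodes, 11.1%, 5.87%, 3.28% and 3.16%, and at equal depth it was 5.26%, 2.68%, 0.932% and 0.917% against 0.594%, 0.289%, 0.0721% and 0.0930%. Thinned, Ptprc had a UMI in 0.351%, 3.07%, 0.621% and 1.53% of high-mitochondrial barcodes against 6.26%, 12.95%, 8.17% and 8.59% of the remaining ones.

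Across all nuclear genes, UMIs were summed per library over high-mitochondrial and over remaining barcodes. Transcripts of proximal tubule and thick ascending limb rose and those of leukocytes, endothelium and antigen presentation fell. Of 16527 genes tested, 2023 were higher (12.2%) and 2769 lower (16.8%), 29% in all, with a median log2 difference of -0.27 over all genes. Leaving out mutant 2 gave 2968 calls, and restricting the remaining barcodes to at most 2000 nuclear UMIs gave 1016 higher (10.6%) and 762 lower (7.97%) of 9565.

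The 10 largest rises that passed the naming rule included Gpx6, Apob, Susd2, Scd1, Slc12a1, Umod, Fam151a, Ugt2b34 and Mep1a, with log2 differences of 3.01 to 3.60. Umod, uromodulin of the thick ascending limb, stood at 628 and 6017 CPM in the high-mitochondrial barcodes of the mutants, 3724 and 2777 in those of the wild types, against 289.5, 406, 396 and 218 in the remaining ones. Apob, the protein of lipoprotein particles, stood at 295, 353, 600.3 and 536 against 38.6, 17.4, 40.4 and 125. For both genes the high-mitochondrial barcodes were higher in 4 of 4 libraries.

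The 10 largest falls were Gzma, Iglv1, Igha, Rnase6, Alox5ap, Ifi211, Igkc, Ramp1, Cd209a and Ighm, all genes of immune cells except Ramp1, a receptor accessory protein. Gzma, granzyme A of cytotoxic lymphocytes, had 0, 2, 1 and 0 UMIs in high-mitochondrial barcodes, against 21.1, 115, 180.1 and 7.17 CPM in the remaining ones. Ighm, the heavy chain of IgM, stood at 260.4, 213, 106 and 1659 CPM against 2653, 4488, 1664 and 12079. The immunoglobulin falls did not hold against remaining barcodes of at most 2000 nuclear UMIs, where Igha and Igkc differed by 0.48 (adjusted p = 0.422) and 0.05 (adjusted p = 0.94), and Ighm by -0.26 (adjusted p = 0.548). Scrublet doublets and free RNA were not separated in these sums.

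Lists of genes followed the leading classes. All 8 leukocyte list genes and all 9 endothelial list genes fell, as did 7 of 7 macrophage, 6 of 6 T and NK cell, 5 of 5 B cell and 4 of 4 neutrophil genes. Of solute transporters of the proximal tubule 30 of 32 rose and none fell (median log2 2.13), and of secreted and brush-border proteins 17 of 20 rose (2.09). Of nuclear-encoded complex I subunits 33 of 36 rose (1.09), and of subunits of complexes II to V 35 of 38 (1.11), while 33 of 80 cytosolic ribosomal proteins (-0.73), 13 of 14 MHC genes (-2.25) and 19 of 21 immediate early genes (-2.15) fell. The makeup of the 2 kinds of barcode differed in these sums, so the next comparison was held within barcodes led by proximal tubule markers.

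Within proximal-led barcodes, membrane and secreted proteins of the proximal tubule were higher in the high-mitochondrial barcodes. Few nuclear genes of respiration were called there against all remaining barcodes. The comparison set 286 and 168 high-mitochondrial barcodes of the mutants and 253 and 246 of the wild types against 2623, 1243, 1702 and 3665 remaining ones. Of 12045 genes tested, 709 were higher (5.89%) and 517 lower (4.29%), 10.2% in all, with a median of -0.14 over all genes. Depth differed between the 2 sides, with median nuclear UMIs of 529, 1269.5, 1046 and 895 against 2659, 2761, 3615 and 3793. Each result was therefore also taken against proximal-led remaining barcodes of at most 2000 nuclear UMIs (medians 1093.5, 1237, 1311 and 930.0), called the shallow remaining barcodes. These differed from all proximal-led remaining barcodes in more than depth. Their median mitochondrial share was 1.89%, 13.4%, 21.6% and 14.5%, against 2.79%, 15.5%, 10.9% and 10.8% in all of them (mutant 1, mutant 2, wild type 1, wild type 2). Against the shallow ones 917 of 6281 genes were higher (14.6%) and 418 lower (6.65%), with a median of 0.01. The 2 sets of calls shared 561 genes in the same direction, 45.8% of the first and 42.0% of the second. Leaving out wild type 1 left 317 calls and leaving out mutant 2 left 536. DESeq2 called 811 (6.73%), 650 higher (5.4%) and 161 lower (1.34%), of which 786 were also called by edgeR.

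Solute transporters gave the most even shift. Of 32 tested, 18 were higher and none lower (median log2 0.90), and against the shallow remaining barcodes 27 of 31 were higher and none lower (0.91). Aqp1, the water channel of the proximal tubule, stood at 188 and 385 CPM in high-mitochondrial barcodes of the mutants, 343 and 366 in those of the wild types, against 80.2, 153, 104 and 153 in the remaining ones. Its log2 difference was 1.5 (SE 0.23, adjusted p = 8.67e-09), and 0.86 against the shallow remaining barcodes. Slc3a2, the heavy chain of amino acid exchangers, stood at 240.3, 810.0, 786 and 379 against 225, 359, 256 and 179.6, a difference of 1.14 (SE 0.23, adjusted p = 5.06e-05) and of 1.24 against the shallow ones. Slc7a8, a neutral amino acid exchanger that pairs with it, differed by 1.09 and 1.64, and Slc22a18, a transporter of the organic cation family, by 1.14 and 1.04. In each of these 4 genes the high-mitochondrial side was higher in 4 of 4 libraries. The rule of at least 3 marker UMIs asks for more markers per transcript in a shallow barcode, and the proximal class list itself summed to 15106, 27261, 29314 and 22585 CPM in high-mitochondrial barcodes, against 14401, 17669, 17807 and 16401 in the remaining ones; its part in these rises was not tested.

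Secreted and brush-border proteins were higher in 13 of 20 and lower in none (median 1.05), and higher in 14 and lower in 1 against the shallow remaining barcodes (0.87). Mep1a, the alpha subunit of the brush-border protease meprin, stood at 612, 649, 634 and 689 CPM against 194, 253, 222 and 269.7, with no overlap (log2 1.58, SE 0.23, adjusted p = 1.78e-09, and 1.00 against the shallow ones). Enpep, the aminopeptidase that cleaves angiotensin II, differed by 1.38 and 1.49. The largest of the named rises, Klk1, belongs to the list but not to the segment: tissue kallikrein is made in the connecting tubule. It stood at 218, 1364, 64.7 and 42.4 CPM against 23.9, 94.99, 19.5 and 5.38 (log2 3.15, SE 0.27, adjusted p = 5.13e-28, and 2.27 against the shallow ones), with mutant 2 far above the other 3 libraries.

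Markers of other segments moved with these rises. In proximal-led high-mitochondrial barcodes 2 of 4 thick ascending limb, 2 of 3 distal convoluted tubule, 4 of 5 connecting tubule and principal, and 1 of 2 intercalated list genes tested were higher and none lower. The thick ascending limb list summed to 162, 74.7, 55 and 131 CPM against 25.6, 39.1, 14.4 and 36.4, and the connecting tubule list to 87.4, 59.0, 90.5 and 114 against 24.6, 36.1, 28.5 and 34.4. Single genes rested on few UMIs, for Slc12a1 on 9, 2, 3 and 8, and of these lists Umod and Slc12a3 were higher against the shallow remaining barcodes. Their part in the rise of Klk1 was not tested.

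Of 14 genes of the sodium pump and the vacuolar proton pump 6 were higher and none lower (median 0.56), and 7 higher and 4 lower against the shallow remaining barcodes (0.23). Atp1b1, the beta subunit of the sodium pump, stood at 778, 2501, 2357 and 1834 CPM against 515, 1038, 946 and 1039 (log2 1.12, SE 0.25, adjusted p = 0.000258, and 1.10 against the shallow ones). The membrane accessory proteins of the proton pump, Atp6ap1 and Atp6ap2, differed by 1.36 and 1.41. The 4 genes that were lower against the shallow remaining barcodes were Atp6v1g1, Atp6v1e1 and Atp6v1f, subunits of the cytosolic part of the proton pump, and Fxyd2, the small regulatory subunit of the sodium pump.

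Among the other large rises, Apob, Plxnb2, Susd2 and Erlin2 held against the shallow remaining barcodes. Apob stood at 481, 578, 805 and 689 CPM against 167, 185, 155 and 242 (log2 1.88, SE 0.23, adjusted p = 4.81e-13, and 1.53 against the shallow ones). Plxnb2, a semaphorin receptor, stood at 105, 153, 194 and 144 against 22.8, 42.8, 28.3 and 46.2 (2.23 and 1.60). Susd2, a membrane protein, differed by 1.89 and 1.17, and Erlin2, a protein of the endoplasmic reticulum membrane, by 1.83 and 1.10. Scd1, a fatty acid desaturase, and Defb1, a beta-defensin, differed by 2.12 and 2.35 but by 0.38 (adjusted p = 0.158) and 0.89 (adjusted p = 0.0819) against the shallow remaining barcodes.

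Lars2, the mitochondrial leucyl-tRNA synthetase, was the one gene higher among 29 mitochondrial tRNA synthetases and translation factors. It stood at 1569, 594, 191 and 1488 CPM in high-mitochondrial barcodes, against 147, 155, 55.9 and 242 in the remaining ones (log2 2.57, SE 0.24, adjusted p = 1.21e-22, and 1.49 against the shallow ones, adjusted p = 3.21e-09). Wild type 1 was lowest on both sides. Camk1d, a calmodulin kinase, and Cmss1, whose yeast relative acts in ribosome assembly, had log2 differences of 2.47 and 2.31, and of 1.21 and 1.09 against the shallow ones. The list of synthetases without Lars2 held no gene past the threshold, with Rars2 at -0.84 (adjusted p = 0.0747) and Tsfm, an elongation factor, at -0.62 (adjusted p = 0.137); against the shallow remaining barcodes Lars2 was higher and Tsfm lower of 14 tested.

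A predicted gene, Gm42418, was named after its values were seen, because of its level. It lies at chr17:39846958-39848788 on the plus strand (mm10, GENCODE M21), and RefSeq lists the synonym Rn18s-rs5, an 18S ribosomal RNA related sequence. It stood at 30571, 21752, 16729 and 45298 CPM in proximal-led high-mitochondrial barcodes, against 5211, 5151, 2395 and 8849 in the remaining ones and 13047, 10249.6, 7772 and 32975 in the shallow remaining ones. The log2 difference was 2.56 (SE 0.35, adjusted p = 1.38e-10), and 1.06 (adjusted p = 1.04e-06) against the shallow ones. AY036118 lies inside it on the other strand, and without a statement on strand their reads cannot be told apart. As for Lars2, wild type 1 was lowest for Gm42418 among both high-mitochondrial and remaining barcodes. Whether the rises of Lars2, Camk1d and Cmss1 are separate from that of Gm42418 was not tested.

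Against all proximal-led remaining barcodes few nuclear genes of mitochondrial respiration were called, in contrast to the sums over all barcodes. Of 36 nuclear complex I subunits none was called in either direction (median 0.11), and of 38 subunits of complexes II to V 1 was higher and none lower (0.06). That gene was Cox6a1, a subunit of complex IV, at 664, 1600.3, 2137 and 1616 CPM against 686, 959.9, 963 and 739 (log2 0.87, SE 0.25, adjusted p = 0.00728). Against the shallow remaining barcodes 6 complex I subunits and 10 of complexes II to V were lower and 0 and 1 higher, with medians of -0.21 and -0.27. Over all genes tested against the shallow ones 6.65% were lower and 14.6% higher. Of 78 mitochondrial ribosomal proteins 1 was lower and none higher (-0.25), and 18 of 76 were lower against the shallow ones (-0.43). The lower one, Mrps7, of the small subunit of the mitochondrial ribosome, stood at 56.8, 70.8, 77.6 and 65.3 CPM against 151, 149, 147 and 76.9 (log2 -0.78, SE 0.26, adjusted p = 0.0296).

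Against all remaining barcodes, metabolic genes were called about as often as the 10.2% of all genes tested. Fatty acid oxidation had 1 gene higher and 2 lower of 23 (median -0.16), with the gatekeeper Cpt1a at 0.78 (adjusted p = 0.0146), the transcription factor Ppara at -0.99 (adjusted p = 0.00168) and Etfdh at -0.78 (adjusted p = 0.0493). The TCA cycle had 1 higher of 19, Ogdh at 0.76 (adjusted p = 0.0113), glycolysis 0 of 13, and gluconeogenesis 1 higher, the glucose 6-phosphate transporter Slc37a4, and 1 lower, Slc25a13, of 10. Against the shallow remaining barcodes lower genes were more frequent in each of these lists than the 6.65% over all genes tested there. Their counts were 6 of 23 for fatty acid oxidation, 4 of 19 for the TCA cycle, 6 of 12 for glycolysis and 2 of 10 for gluconeogenesis. In the same order 1, 1, 0 and 3 were higher, beside 14.6% over all genes. Cytosolic ribosomal proteins had no gene called of 80 (0.05), and 3 lower against the shallow ones (-0.11).

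For transcripts that stay in the nucleus the direction turned with the choice of remaining barcodes, all or shallow. Whether depth or another trait of the shallow ones lay behind this was not tested. Of 8 nuclear-retained long noncoding RNAs 6 were lower and none higher (median -1.21), but 4 of 7 were higher and none lower against the shallow remaining barcodes (0.62). Xist, the RNA that coats the inactive X chromosome, stood at 673, 102, 239 and 352 CPM in high-mitochondrial barcodes, against 928, 532, 935 and 2335 in all and 262, 113, 322 and 184 in the shallow remaining barcodes. Its log2 difference was -1.75 (SE 0.25, adjusted p = 2.47e-09) against all of them and 0.62 (adjusted p = 0.0152) against the shallow ones. By CPM, Xist was above the shallow ones in mutant 1 and wild type 2 and below them in mutant 2 and wild type 1. Neat1, the scaffold of paraspeckles, differed by -1.26 (adjusted p = 2.57e-05) and by 0.68 (adjusted p = 0.0184), and Mir99ahg and Kcnq1ot1 by -1.57 and -1.31, and by 0.62 and 0.59 with adjusted p of 0.11 and 0.215.

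Long genes did the same. With genes split into 4 equal groups by gene span, from shortest to longest, 1.46%, 1.73%, 2.69% and 11.3% of tested genes were lower in high-mitochondrial barcodes against all remaining ones. Against the shallow remaining barcodes the order was the reverse, 12.4%, 9.11%, 4.14% and 1.02% lower and 9.43%, 13.5%, 15.2% and 20.3% higher. The median span was 103 kb for genes called lower, 21.2 kb for those called higher and 24.4 kb for all tested. Long genes led the 10 largest falls against all remaining barcodes: Agbl4, Fgfr2, St6galnac3, Xist, Zfp385b, Pde4d, Fos, Zeb1, Jun and Pde4b, with log2 differences of -2.22 to -1.63. Pde4d, a cAMP phosphodiesterase, differed by -1.72 (adjusted p = 6.42e-09) and by 0.56 (adjusted p = 0.0326) against the shallow ones. None of the other genes of that list tested against the shallow ones was called lower there, and Agbl4 and Zeb1 were not tested.

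**Figure D4:**
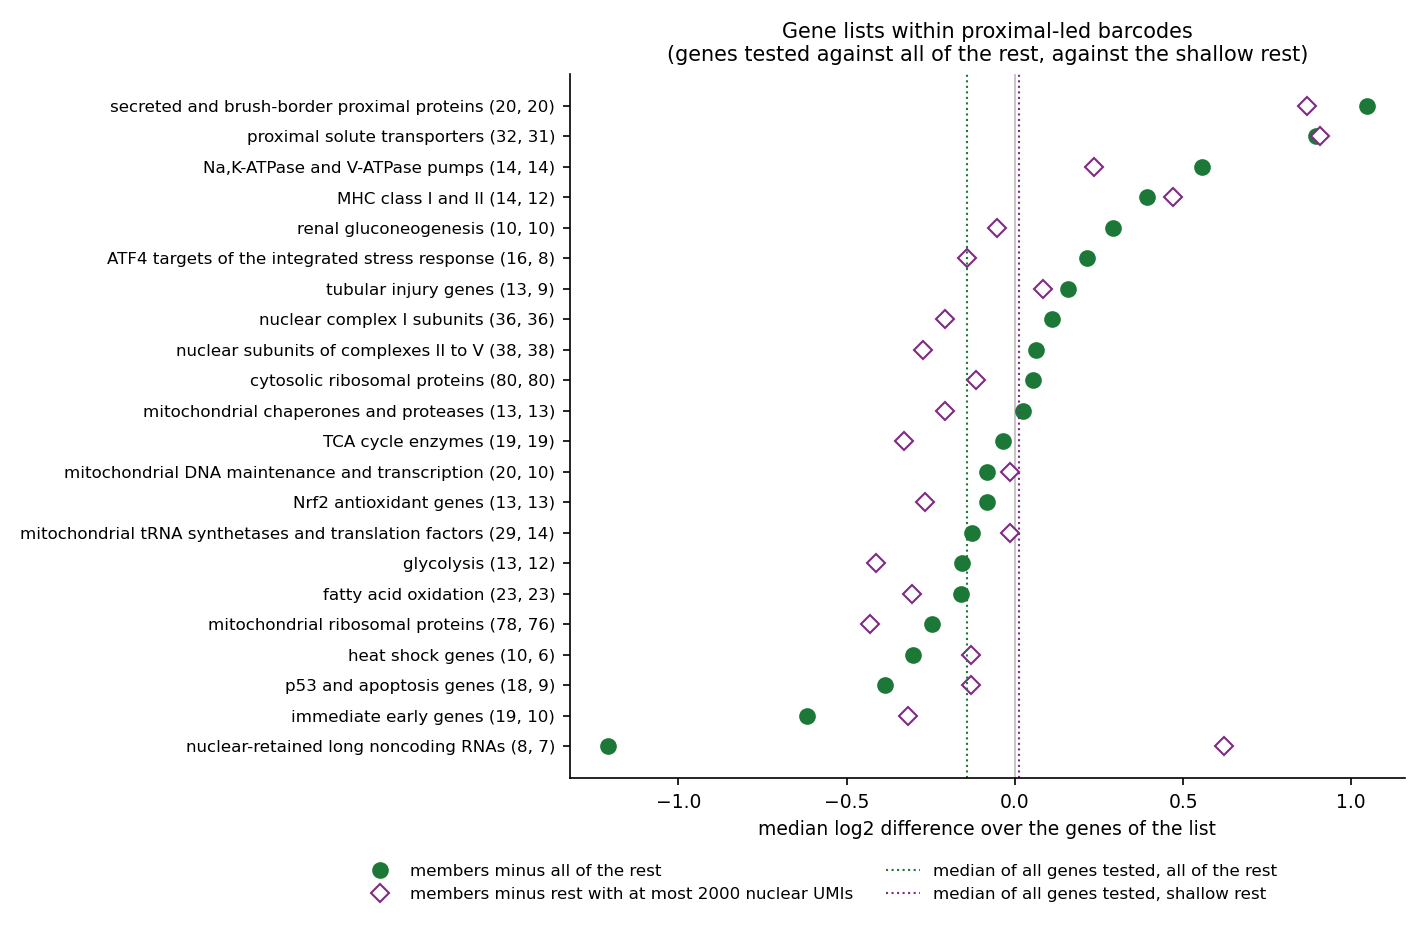
Median log2 difference between high-mitochondrial (members) and remaining (rest) proximal-led barcodes over the tested genes of each list, against all remaining barcodes (filled circles) and against those with at most 2000 nuclear UMIs (open diamonds); dotted lines are the medians of all tested genes, and the brackets give genes tested. Solute transporters kept 0.90 and 0.91, while nuclear-retained long noncoding RNAs stood at -1.21 and 0.62.

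The next lists are to be read against the shares over all genes tested. Against all remaining barcodes 5.89% were higher and 4.29% lower, 10.2% in all. Against the shallow ones 14.6% were higher and 6.65% lower, 21.3% in all. Of 19 immediate early genes 5 were lower and none higher (median -0.62), and 1 of 10, Jund, against the shallow remaining barcodes (-0.32). Jun, a transcription factor induced by dissociation as well as by injury, stood at 83, 15.7, 12.9 and 45.7 CPM against 324, 123, 36.8 and 74.5, and Fosb had 1, 0, 0 and 1 UMIs. Of 16 targets of the stress factor ATF4 1 was higher, the transporter subunit Slc3a2 already named. Heat shock genes had none called of 10, p53 and apoptosis genes 1 lower of 18, the death agonist Bid (-0.96, adjusted p = 0.0253), and mitochondrial chaperones and proteases none of 13.

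Antioxidant genes had 1 higher of 13, the metallothionein Mt1 (0.67, adjusted p = 0.035), and 3 lower of 13 against the shallow remaining barcodes. Injury genes had 2 higher of 13, Spp1 and Clu. Spp1, osteopontin, stood at 2465, 9692, 5735 and 4684 CPM against 3338, 5208, 2142 and 1466 (log2 1.03, SE 0.29, adjusted p = 0.00749), lower in mutant 1 and higher in the other 3. Mitochondrial DNA maintenance and transcription had 1 gene higher of 20, the polymerase Polrmt (1.15, adjusted p = 0.0365), and 1 lower, Polg2, with 0, 0, 1 and 0 UMIs.

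Of 14 MHC genes 3 were higher and none lower (median 0.39), and 5 of 12 against the shallow remaining barcodes (0.47). B2m, the light chain of class I, stood at 520.0, 1482, 973 and 829 CPM against 411, 888, 382 and 405 (log2 0.99, SE 0.24, adjusted p = 0.000906), and Tapbp and H2-K1 differed by 1.47 and 0.80. Of 8 leukocyte markers none was called against all remaining barcodes, and the list summed to 459, 318, 100.2 and 359 CPM against 335, 446, 202 and 271. The macrophage list summed to 996, 735, 139 and 26.1 against 759, 618, 238 and 39.3, and 3 of its 5 tested genes (C1qa, C1qb, C1qc) were higher against the shallow ones.

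Among the mitochondrial UMIs themselves, each library had a mix of its own that its high-mitochondrial barcodes shared with its remaining ones. The 13 mRNAs were counted 847885 and 683500 times in high-mitochondrial barcodes of the mutants and 688116 and 680006 times in those of the wild types. Summed by complex, mRNAs of complex I made up 22.3% and 24.9% in the mutants, against 23.6% and 27.0% in the wild types, those of complex IV 47.5%, 43.5%, 44.0% and 40.8%, those of complex V 14.4%, 18.9%, 13.4% and 20.5%, and mt-Cytb of complex III 15.9%, 12.6%, 19.0% and 11.8% (mutant 1, mutant 2, wild type 1, wild type 2). The genotypes overlapped for each of the 4 complexes.

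The distance between 2 mixes was taken as the share of UMIs that would have to change gene to make them equal, in percentage points. Between high-mitochondrial and remaining barcodes of the same library it was 1.57 and 2.63 points in the mutants, against 1.43 and 1.84 in the wild types. Between high-mitochondrial barcodes of different libraries it was 5.29 to 12.4 points. The closest pair was mutant 1 with wild type 1 and the most distant was wild type 1 with wild type 2, so the closest pair held 1 library of each genotype.

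The 3 mRNAs that mark these barcodes made up a large part of the mix. mt-Co1, the catalytic subunit of complex IV, made up 13.6% and 13.1% in the mutants, against 13.6% and 10.3% in the wild types. mt-Nd4, a membrane subunit of complex I, made up 7.86%, 9.24%, 9.19% and 8.52% in the same order, and mt-Cytb is given above. Per kilobase of gene, mt-Co3 stood at 202889, 141892, 159161 and 148629 UMIs and mt-Nd6 at 435, 343, 570.3 and 3071. These are sums not scaled to the mitochondrial total of each library. With a 3′ kit they do not rank genes of unlike length. mt-Nd6 is the single mRNA of the 13 on the other strand, and mt-Nd5 overlaps it there, so without a statement on strand the 2 cannot be fully told apart. The pairs mt-Atp8 with mt-Atp6 and mt-Nd4l with mt-Nd4 overlap on the same strand. A statement on strand would not tell them apart where they overlap.

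High-mitochondrial barcodes held slightly more complex I mRNA and less mt-Co1 than the remaining ones. mt-Co1 made up 13.6%, 13.1%, 13.6% and 10.3% of mitochondrial UMIs in high-mitochondrial barcodes, against 15.0%, 15.0%, 14.6% and 11.9% in the remaining ones, lower in 4 of 4 libraries (log2 -0.16, SE 0.02, adjusted p = 0.00404; edgeR quasi-likelihood test over the 13 with library as a block). mt-Nd2 made up 4.79%, 6.06%, 5.22% and 5.55% against 4.37%, 5.34%, 4.84% and 5.13%, higher in 4 of 4 (0.13, SE 0.02, adjusted p = 0.00404). mt-Nd4l, mt-Nd1 and mt-Nd4 were higher by 0.11, 0.10 and 0.08 (adjusted p = 0.0215, 0.0138 and 0.0157), each in 4 of 4 libraries. These 5 of 13 are 38.5%, with 4 higher (30.8%) and 1 lower (7.69%).

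Within proximal-led barcodes none of the 13 was called (0%). Complex I mRNAs then made up 22.9% and 25.6% in high-mitochondrial barcodes of the mutants, 23.9% and 27.1% in those of the wild types, against 22.4%, 25.5%, 23.5% and 26.7% in the remaining ones. Leaving out wild type 1 left 2 of the 5 calls. Against remaining barcodes of at most 2000 nuclear UMIs mt-Nd4l kept its call and the other 4 lost theirs, mt-Co1 among them, while mt-Nd3 and mt-Nd5 were called higher.

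**Figure D5:**
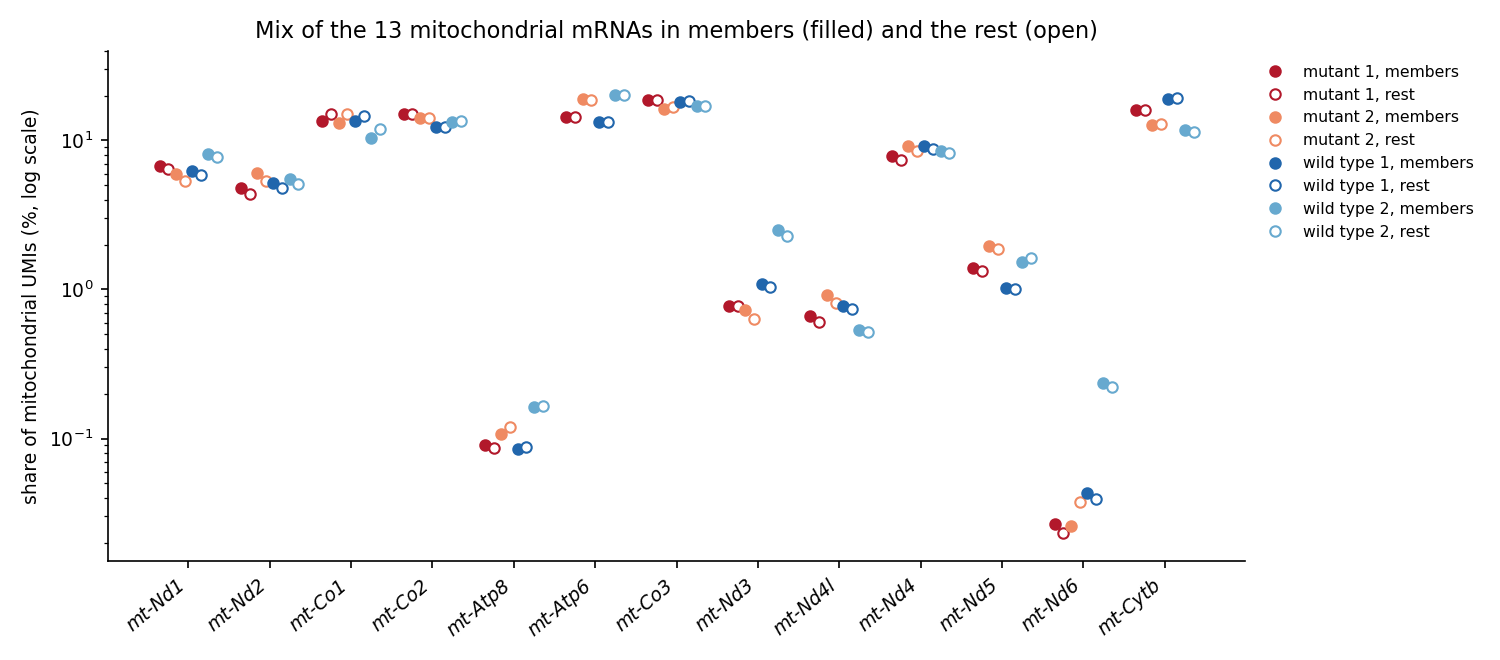
Share of mitochondrial UMIs (%, log scale) of each of the 13 mitochondrial mRNAs in high-mitochondrial barcodes (members, filled) and remaining barcodes (rest, open) of each library. Filled and open points of 1 library lie close together, and mt-Nd3 and mt-Nd6 stood highest in wild type 2, at 2.49% and 0.234%.

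Between genotypes, mt-Nd6 and mt-Nd3, both of complex I, were lower in the high-mitochondrial barcodes of the mutants, and mt-Co2 was higher, without overlap. None passed the threshold. These were 3 of the 13 mRNAs, and with 2 against 2 any separation without overlap has an exact two-sided permutation p of 0.333. mt-Nd6 made up 0.0267% and 0.0260% in the mutants (226 and 178 UMIs) against 0.0430% and 0.234% in the wild types (296 and 1594 UMIs). Wild type 2 stood far above the other 3 libraries. The log2 difference was -2.40 (SE 0.75, adjusted p = 0.179). mt-Nd3 made up 0.777% and 0.723% in the mutants against 1.08% and 2.49% in the wild types (-1.25, SE 0.44, adjusted p = 0.179). mt-Co2 made up 14.6% ± 0.641 in the mutants, against 12.8% ± 0.746 in the wild types (SD, n = 2 each, exact two-sided permutation p = 0.333, the smallest that 2 against 2 allow).

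These 2 differences rested on wild type 2. Without it mt-Nd6 differed by -0.71 and mt-Nd3 by -0.53, and neither was called, whereas without wild type 1 they differed by -3.15 (adjusted p = 1.64e-07) and -1.73 (adjusted p = 4.09e-05). Each of these fits has a single wild type, which is assumed to vary like the mutants. The remaining barcodes had the same order, with mt-Nd6 at 0.0233% and 0.0374% in the mutants, against 0.0394% and 0.222% in the wild types. The test of whether the genotype difference depended on the kind of barcode called none of the 13 (0%, smallest adjusted p = 0.294, 1 at an unadjusted p under 0.05).

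Nuclear genes of the high-mitochondrial barcodes gave no call between genotypes. Of 6324 genes tested over all of them 0 passed (0%; edgeR quasi-likelihood test, 346 at an unadjusted p under 0.05, smallest adjusted p = 0.12), and within proximal-led ones 0 of 4257 (0%; 64 at an unadjusted p under 0.05, smallest adjusted p = 0.382). DESeq2 called 11 over all of them, each higher in the mutants: Atp6v1g3, Fcgr3, Ctss, C1qa, Tyrobp, Lyz2, H2-Ab1, H2-Aa, H2-Eb1, Cd74 and Ms4a7. Apart from Atp6v1g3 they are genes of macrophages and antigen presentation. Within proximal-led ones DESeq2 called C1qa, Klk1 and H2-Ab1. Leaving out 1 library let edgeR call 30 to 310 genes over all of them and 0 to 71 within proximal-led ones, most without mutant 2.

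C1qa, a complement protein made by macrophages, stood at 1099.6 and 414 CPM in high-mitochondrial barcodes of the mutants, against 40.8 and 12.3 in those of the wild types, with no overlap (edgeR log2 4.73, SE 0.66, adjusted p = 0.12). In proximal-led ones it stood at 328 and 197 against 35.6 and 6.53 CPM. H2-Ab1, a class II chain, stood at 865 and 719.6 CPM in proximal-led ones of the mutants, against 155 and 163 in those of the wild types (2.3, adjusted p = 0.382). The macrophage list was also higher in the remaining barcodes of the mutants, at 9147 and 6531 CPM against 3970.1 and 212 in the wild types; its part in these differences was not tested.

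Atp6v1g3, at 407 and 488 CPM in the mutants against 86.4 and 34.4 in the wild types, differed by 2.83 (edgeR, SE 0.48, adjusted p = 0.166, and DESeq2 adjusted p = 0.00075). In the remaining barcodes it stood at 204 and 103 against 91.4 and 44.0 CPM. Another proton pump subunit of intercalated cells, Atp6v0d2, stood at 79.0 and 63.9 against 4.80 and 7.37 CPM (3.45, edgeR adjusted p = 0.12). Both genes are on the list that defines intercalated-led barcodes, so the counts of these are not separate support. Intercalated-led were 23 barcodes of the mutants (2.81% and 2.68%) and 2 of the wild types (0.621% and 0%). Among remaining barcodes the shares were 1.46% and 1.09% against 1.13% and 0.544%. The median differences over tested genes were 0.01 for complex I, 0.03 for complexes II to V, 0.08 for mitochondrial ribosomal proteins, -0.19 for solute transporters and 1.14 for MHC genes in proximal-led high-mitochondrial barcodes, beside -0.01 for all genes tested.

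Whether the genotype difference depended on the kind of barcode was tested within proximal-led barcodes. Of 12045 genes 2 passed, 0.0166%, 1 in each direction (0.0083% each), with 630 at an unadjusted p under 0.05. Arl15, a small GTPase of the ARF family, stood at 227 and 35.4 CPM in high-mitochondrial barcodes of the mutants, 25.9 and 35.9 in those of the wild types, against 128, 77.7, 119 and 247 in the remaining barcodes (interaction log2 2.48, SE 0.53, adjusted p = 0.0186). Ptgds, a prostaglandin D synthase, had 2, 1, 1 and 12 UMIs in high-mitochondrial barcodes and stood at 20.1, 28.7, 3.75 and 2.86 CPM in the remaining ones (-4.81, SE 1.01, adjusted p = 0.0186). Without wild type 2 neither was called (Ptgds -1.93, Arl15 2.07, adjusted p = 1 for both), without mutant 1 Arl15 was at 1.35 (edgeR adjusted p = 1), without wild type 1 it was not called either, and DESeq2 called neither.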

How the data were processed

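Droplet 3′ single-cell RNA-seq was run on whole kidney of 4 mice, 2 of them TrnE mutants. The authors deposited unnormalized UMI counts per gene and barcode for 32285 genes, made with Cell Ranger (per the file headers, version 7.0.0 in mutant and 7.1.0 in wild-type libraries), so that version and genotype cannot be told apart. The build is mm10, per the submitters' processing notes. No source used here names the annotation release or the use of strand, and positions are those of GENCODE M21.

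The members, the gene lists and the comparisons were chosen with earlier results of these data known. Counts were summed per library over high-mitochondrial and remaining barcodes, for all barcodes and for proximal-led ones. Mitochondrial genes, which chose the barcodes, were left out of the nuclear sums, and CPM are counts scaled to the nuclear total. The 13 mitochondrial mRNAs were tested on their own total. Tests were edgeR 4.0.16 quasi-likelihood fits with TMM scaling and filterByExpr (R 4.3.3, limma 3.58.1), Benjamini-Hochberg adjusted at 0.05 over all genes tested. Library was a block for high-mitochondrial against remaining barcodes and for the interaction, and there was no block between genotypes. DESeq2 1.42.0 was an alternative. Exact permutation tests (scipy 1.17.1) were two-sided. Each library is 1 mouse, so p-values between genotypes rest on the spread between mice of the same genotype. In fits with library as a block they rest on how the difference between the kinds of barcode varied between the 4 mice. Intervals and floors cover counting error only. Doublets were called with Scrublet in scanpy 1.11.5 and kept, and left out as an alternative.

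The named genes were the 13 mitochondrial mRNAs and 5 segment genes. For high-mitochondrial against remaining barcodes they were also the 10 largest rises and 10 largest falls among called genes that averaged 30 CPM or more and had the same direction in every library, passing over predicted genes and, within a class, class list genes. Up to 4 genes of each list with the smallest p within proximal-led barcodes were added. Genes called by DESeq2 between genotypes, Atp6v0d2, Gm42418 and AY036118 were named after their values were seen. A pair of genes that the rule named is not reported here.

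The fits were tested on simulated counts with 200 changed genes, drawn only from genes with higher expected counts. The simulated spread followed the trend over genes, without the added spread of single genes. Genes resting on few UMIs were not among the changed ones, so the shares found do not apply to them. Of genes changed 4-fold the test found 92.5% for high-mitochondrial against remaining proximal-led barcodes, 56% between genotypes in proximal-led high-mitochondrial barcodes and 32.5% for the interaction. Of genes changed 2-fold it found 34.5%, 0% and 0%.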

Additional observations from a re-analysis of the deposited data

Results flagged for a closer look

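Arl15 and Ptgds stood out because the genotype difference depended on the kind of barcode within proximal-led barcodes, by a test of the difference itself. Arl15 had an interaction of 2.48 on the log2 scale (edgeR adjusted p = 0.0186): in the mutants 52 and 9 UMIs were counted in high-mitochondrial barcodes, against 8 and 11 in the wild types. It was not called without mutant 1, where it was 1.35 (edgeR adjusted p = 1), without either wild type, with DESeq2, with no filter, at 1000 UMIs, with doublets left out, for members over 60 up to 80%, against remaining barcodes of at most 25% mitochondrial UMIs or at 6 marker UMIs. Ptgds had an interaction of -4.81 (edgeR adjusted p = 0.0186), which rested on 12 UMIs in wild type 2, against 2, 1 and 1 in the other libraries. Without wild type 2 it was -1.93 (edgeR adjusted p = 1). The causes were not tested.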

How the results depend on the processing

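For high-mitochondrial against remaining barcodes, 4792 nuclear genes were called. The count was 1778 against remaining barcodes of at most 2000 nuclear UMIs, 3064 with no library block, and 2968 to 4747 with 1 library left out. Within proximal-led barcodes 1226 were called, against 811 by DESeq2, 474 for members over 60 up to 80%, 268 with no library block, and 317 to 1706 with 1 library left out. Against the remaining barcodes of at most 2000 nuclear UMIs, a setting chosen after seeing the data, Igha (0.48), Igkc (0.046) and Atp6v1g3 (-0.15) changed sign over all barcodes, and Xist (0.62), Pde4d (0.56), Mir99ahg (0.62), Neat1 (0.68), Kcnq1ot1 (0.59), Ppara (0.14) and Ptprc (0.19) within proximal-led ones. Ptprc, not called, also changed sign for members over 60 up to 80% (0.23), with doublet calls left out (0.57) and at 80% of marker UMIs (0.75), and ran from -0.59 to 0.072 with 1 library left out. Of 60 genes followed within proximal-led barcodes, 873 values kept direction and call, 183 lost the call, 6 gained one and 12 changed sign.

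The replicate numbers are not stated to pair mice, and the deviations of same-numbered libraries correlated at -0.39 over 4257 genes. Between genotypes 0 nuclear genes were called, and 0 with the replicate block, over all and over proximal-led barcodes. The crossed pairing, chosen after seeing the data, gave 46 and 22. No filter gave 116 and 25, DESeq2 gave 11 and 3, and leaving out 1 library gave 30 to 310 and 0 to 71. For the mix between genotypes the replicate block called 1 of 13 (mt-Nd6), the crossed pairing 0, and leaving out 1 library 0 to 2.

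For the mix of high-mitochondrial against remaining barcodes 5 were called, against 0 within proximal-led barcodes, 3 against remaining barcodes of at most 2000 nuclear UMIs, and 2 to 6 with 1 library left out; its interaction gave 0, and 0 to 2 with 1 library left out. The nuclear interaction gave 2, against 5 with library totals, 0 with DESeq2 and for members over 60 up to 80%, 4 for members over 50 up to 65%, 6 against remaining barcodes of at most 2000 nuclear UMIs and at 80% of marker UMIs, 0 to 6 with 1 library left out, and 1 with no filter, at 1000 UMIs, with doublets left out, against remaining barcodes of at most 25% mitochondrial UMIs, and at 6 marker UMIs.

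A lower limit of 60% left 959 of 1480 barcodes. The thick ascending limb share, 0.890 points higher in the mutants than in the wild types, was -0.428 at 80% of marker UMIs, -1.33 for members over 50 up to 65%, -0.707 after thinning, and -4.83 to 6.61 with 1 library left out. The proximal share kept its direction, at -26.7 to -12.5 points. The cause of each change was not tested. With 2 mice a group and a median of 433.5 to 1275 nuclear UMIs, genotype differences of 2-fold were below what the tests found in simulated counts.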
